A study of Bos taurus with 6 samples.

Results

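The chromosome segregation and kinetochore genes were taken from the annotation of the deposited expression table of bovine fetal fibroblasts (bEFs). They were the genes that carried the GO term for chromosome segregation and that KEGG did not place in its cell cycle or DNA replication pathways. Of 56 genes with the GO term, 4 were left out because of the cell cycle pathway and 1, RPS3, because its name is that of a ribosomal protein gene. This left 51 of the 17663 genes of the table. Their expression was compared between transgenic (FT) and wild-type (WT) cells.

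The FT fibroblasts were grown from 3 cattle fetuses that carried an exogenous fat-1 gene, and the WT fibroblasts from 3 Luxi cattle fetuses without it. The enzyme made from fat-1 turns n-6 polyunsaturated fatty acids into n-3 ones. All 6 fetuses were 50–60 days old, and the cells were primary cultures of trunk tissue freed of viscera and bone. The poly(A) RNA of each fetus was sequenced as a separate library, named FT_1, FT_2 and FT_3 or WT_1, WT_2 and WT_3, which makes n = 3 in either group. The promoter of the transgene, the breed of the FT fetuses, and the passage and density of the cultures at RNA extraction are not given in the sources used here. The transgene and the genes of the sex chromosomes were not analysed here, and the sex of the fetuses was not tested. The total count was 63366834, 48167642 and 54204446 in FT_1 to FT_3, and 69777641, 51310741 and 54271927 in WT_1 to WT_3.

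In a dividing cell, the kinetochore is built on the centromere of each chromosome and binds the microtubules of the spindle. Its inner layer sits on nucleosomes that hold the histone variant CENPA, its outer layer grips the microtubules, and the chromosomal passenger complex and mitotic kinases correct faulty attachments until the sister chromatids part. Many of these genes are transcribed mainly in the late phases of the cell cycle, and fibroblasts in culture express them while they divide.

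Library FT_1 stood apart from the other FT libraries. The standard deviation of the log2 difference over the 13482 genes tested was 1.40 between FT_1 and FT_2 and 1.41 between FT_1 and FT_3, against 0.51 for FT_2 with FT_3 and 0.45–0.53 for pairs of WT libraries. Between FT_1 and the other FT libraries 22.3% and 22.8% of the genes differed by more than 2-fold, against 4.87% between FT_2 and FT_3. The main counts of changed genes are therefore given with and without FT_1.

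The cells were checked against markers of fibroblasts and of other cell types. All 10 fibroblast markers were expressed, and their summed FPKM (expression scaled by gene length and library size) was 6828, 17047 and 16783 in FT_1 to FT_3 and 17821, 17272 and 17360 in WT_1 to WT_3. Vimentin (VIM), the most abundant of them in FT_3 and in the WT libraries, had 1244, 3850 and 4171 FPKM in FT cells and 7891, 8178 and 7312 in WT cells (adjusted p = 0.0902 from edgeR). Other fibroblast markers lay the other way. PDGFRA had 218, 166 and 141 FPKM in FT cells and 93.5, 87.0 and 99.7 in WT cells and was called higher, and DCN, LUM and PDGFRB were above the WT libraries in FT_2 and FT_3. The 6 epithelial markers summed to 142, 11.9 and 13.02 FPKM in the FT libraries and to 10.3, 7.92 and 14.2 in the WT libraries. The keratin gene KRT8 led them in FT_1 with 84.1 FPKM and had 0.95 and 0.61 in FT_2 and FT_3. KRT18 had 11.2, 0.34 and 0.18 FPKM in the FT libraries, and both genes were at 0 in the WT libraries. CDH1 made up most of the WT sums. It had 36.3, 7.11 and 8.41 FPKM in the FT libraries and 10.03, 7.83 and 13.9 in the WT libraries, so its groups overlapped. KRT19 had 6.26, 0.07 and 0 FPKM in the FT libraries and 0.03, 0 and 0 in the WT libraries. EPCAM was at 0.57 in FT_1 and at 0 in the other 5 libraries. CLDN4, the epithelial marker called higher, was high in all FT libraries, with 3.65, 3.39 and 3.82 FPKM against 0.20, 0.09 and 0.33 in the WT libraries. MSLN, a mesothelial marker, had 199, 44.9 and 46.2 FPKM in FT cells and 2.08, 3.18 and 3.06 in WT cells, whereas the mesothelial marker WT1 was at 0 in the FT libraries and at 0.03–0.05 in the WT libraries. Markers of endothelial cells summed to 0.47–1.52 FPKM and those of blood and immune cells to 3.52–8.09 FPKM in each library. Of the skeletal muscle markers, DES had 5.74, 4.01 and 3.17 FPKM in FT cells and 0.07, 0 and 0 in WT cells, while MYF5 lay the other way with 0.03, 0.59 and 0.61 in FT cells and 1.06, 1.31 and 1.93 in WT cells. The neural crest and Schwann cell markers summed to 4.35–12.96 FPKM in each library. At an adjusted p under 0.05 in edgeR, 1 of 10 fibroblast, 1 of 4 epithelial, 1 of 2 muscle and 1 of 2 mesothelial markers tested were higher in FT cells, 1 of 3 blood and immune markers was lower, and 0 of 3 endothelial and 0 of 1 neural markers were called. Without FT_1, 5 fibroblast and 3 epithelial markers were higher, as were 1 muscle and 1 mesothelial marker, and 1 fibroblast, 1 muscle, 2 blood and immune, 1 endothelial and 1 neural marker were lower. Several marker differences thus remained without FT_1, and their part in the results was not tested.

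Most segregation genes were lower in FT cells. Of the 51 genes, 49 had enough counts to be tested with edgeR, and 29 of these fell and 4 rose at a Benjamini-Hochberg adjusted p under 0.05, while 16 did not pass the test. Among all genes tested, 18.9% were lower and 20.1% were higher at this threshold, 39.0% in either direction. The fallen genes had FT means of 16.0–69.7% of the WT mean FPKM, with a median of 35.8%. The median log2 fold change of the 49 genes in edgeR was -0.82, and that of all genes tested was 0.03. In RNA from whole cultures, fewer cells of a kind and less RNA per cell cannot be told apart. The p-values measure the spread between these fetuses.

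With the threshold used by the study, an unadjusted p under 0.05 and a change of more than 2-fold, edgeR called 21 members lower (19 without FT_1), against 8.96% of all genes. It called 0 members higher, against 10.2% of all genes. DESeq2 and limma also called 0 members higher, against 1528 of 17663 and 462 of 12247 genes. At an unadjusted p under 0.05 alone, edgeR placed 30 members lower and 6 higher, and 3219 lower and 3471 higher of all 13482 genes tested. On the FPKM scale, every FT value lay below every WT value in 37 of the 49 genes (36.9% of all genes tested) and above every WT value in 5 (21.8%). FPKM were not scaled for the composition of the libraries as the counts were in edgeR, so that small FPKM differences such as that of TOP1 could vanish in the log2 fold change.

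Without FT_1, 34 members were lower and 6 were higher, against 31.5% and 30.6% of all genes tested in that fit. They included all 29 fallen and all 4 risen genes of the full comparison. CDT1, NDE1, NEK6, SEH1L and ENSBTAG00000033740 joined the lower genes, and ABRAXAS2 and NAA60 joined the higher ones. The median log2 fold change of the same 49 genes was -0.67 without FT_1. Leaving out WT_2 changed the number of calls more. Without it only 18 members were lower, because CENPW, CENPT, CENPC, CENPE, SKA2, PMF1, MIS12, RCC1, TOP2A, BRCA1 and PPP1R7 lost their call, and only SRPK1 and TOP3B were higher. The share of all genes tested that was called lower also went down, to 11.3%, and the fold changes stayed close, as in CENPW (log2 fold change -1.86), TOP2A (-1.22) and SKA2 (-0.73). The count of higher genes was also 2 without WT_1.

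**Figure D1:**
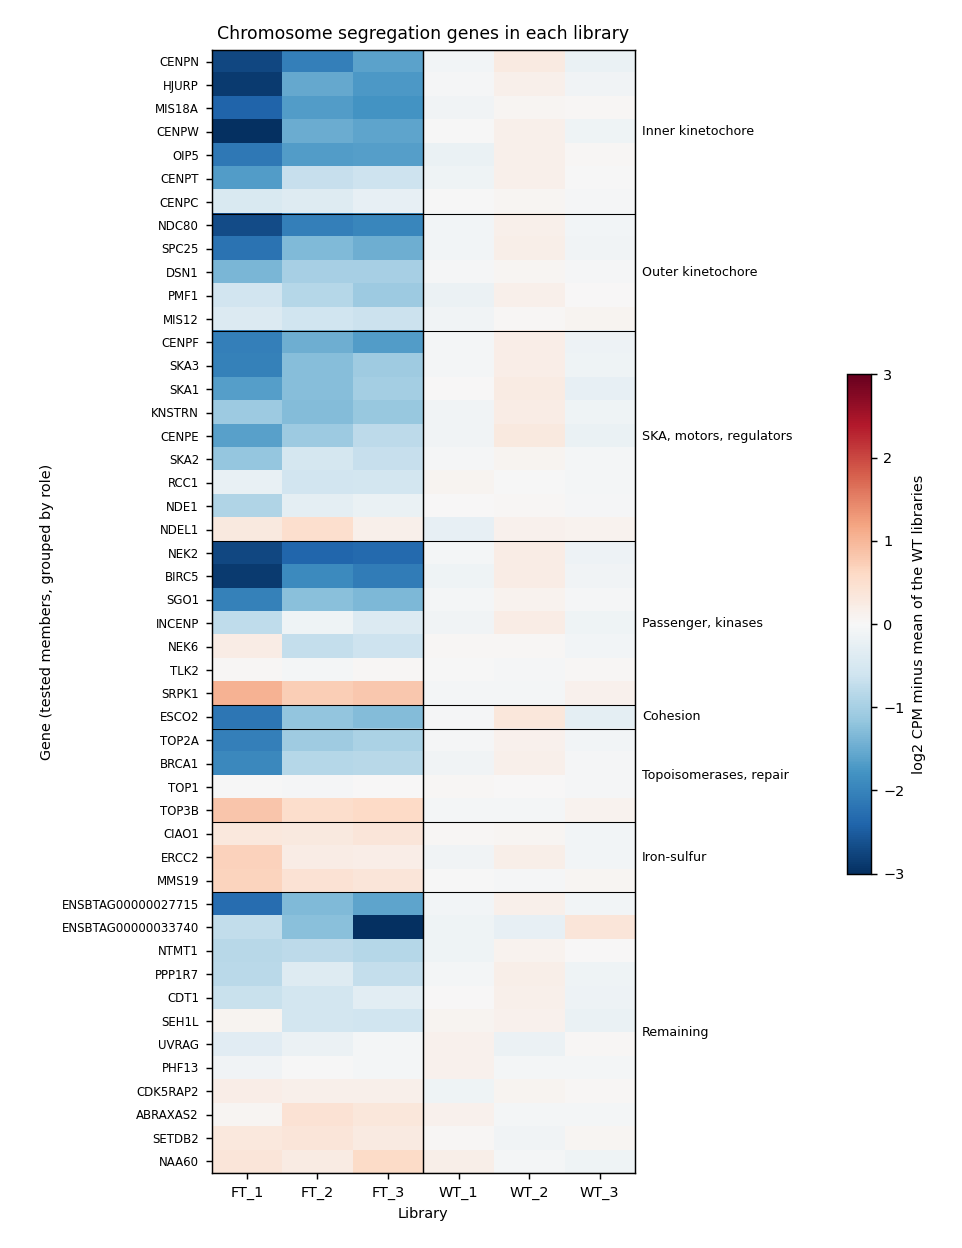
Heat map of all but 1 of the 49 tested segregation genes (grouped by role) in the 6 libraries (columns), as the log2 of the scaled counts minus the mean of the WT libraries. Most kinetochore genes are blue (lower) in all 3 FT libraries and deepest in FT_1, and the iron-sulfur genes, SRPK1 and TOP3B are red (higher).

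The inner kinetochore held 7 members, and all 7 fell, with a median log2 fold change of -1.93 (-1.64 without FT_1). HJURP, the chaperone that places CENPA at centromeres, had 2.21, 5.49 and 4.81 FPKM in FT_1 to FT_3 and 17.6, 20.0 and 16.6 FPKM in WT_1 to WT_3. The FT values lay far below the WT values, and FT_1 was the lowest. Its log2 fold change was -1.95 (standard error, SE, 0.35, adjusted p = 0.00767 from edgeR) and -1.64 without FT_1. MIS18A and OIP5 belong to the complex that prepares the centromere for new CENPA. MIS18A was scarce in both groups, with 0.61, 0.98 and 0.90 FPKM in FT cells against 3.32, 3.75 and 3.68 in WT cells, and OIP5 had 1.43, 1.97 and 1.96 FPKM in FT cells and 6.22, 7.90 and 7.22 in WT cells. Neither gene's groups overlapped. MIS18A fell by 1.95 on the log2 scale (SE 0.25, adjusted p = 0.00264), and OIP5 had a log2 fold change of -1.83 (SE 0.22, adjusted p = 0.00213).

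CENPN, CENPW, CENPT and CENPC belong to the network of proteins that stays on CENPA nucleosomes throughout the cell cycle. CENPN had 2.06, 3.26 and 4.37 FPKM in FT cells against 14.5, 18.3 and 13.3 in WT cells, and with a log2 fold change of -2.08 (SE 0.31, adjusted p = 0.00405) it had the largest change of the inner kinetochore members. CENPW was the most abundant of them, with 43.2, 48.6 and 39.9 FPKM in WT cells, and its FT values were 3.95, 14.01 and 12.8 FPKM. All its FT values lay below all its WT values, but FT_1 was far below the other FT libraries. The log2 fold change of CENPW was -1.93 (SE 0.47, adjusted p = 0.0215) with FT_1 and -1.54 (adjusted p = 2.02e-06) without it. CENPW lost its call when WT_1, WT_2 or WT_3 was left out.

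The changes of CENPT and CENPC were smaller. CENPT, the partner of CENPW that reaches out to the outer kinetochore, had 4.63, 8.99 and 9.38 FPKM in FT cells and 14.9, 18.2 and 16.1 in WT cells. CENPC, which links CENPA nucleosomes with the outer layer, had 8.07, 8.32 and 9.15 FPKM in FT cells and 12.2, 12.6 and 11.8 in WT cells. The groups did not overlap in either gene. CENPT fell by 0.93 (adjusted p = 0.0457) and CENPC by 0.36 (adjusted p = 0.0222) on the log2 scale. CENPT kept its call only in the absence of FT_1 among the fits that left out a library, and CENPC only without FT_1 or FT_3.

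The outer kinetochore held 5 members, NDC80, SPC25, DSN1, PMF1 and MIS12, and all 5 fell, with a median log2 fold change of -1.12 (-1.01 without FT_1). NDC80 gives its name to the complex that grips the microtubule. Its gene (ENSBTAG00000021673, chromosome 24, 36860566 to 36894144 in the authors' table, for which no bovine build is named in the sources used here) had 2.44, 3.71 and 3.89 FPKM in FT cells and 16.3, 19.0 and 16.3 in WT cells. The FT mean was 3.35 ± 0.79 (SD, n = 3) and the WT mean was 17.2 ± 1.55, and no values overlapped. The log2 fold change of NDC80 was -2.20 (SE 0.21, adjusted p = 0.00129) with FT_1 and -2.00 (adjusted p = 3.9e-07) without it. SPC25, another subunit of that complex, had 1.28, 2.33 and 2.11 FPKM in FT cells against 6.32, 7.52 and 6.17 in WT cells. The log2 fold change was -1.64 (SE 0.28, adjusted p = 0.00665).

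DSN1, PMF1 and MIS12 form most of the MIS12 complex, which joins the NDC80 complex to the inner layer. DSN1 had 6.40, 8.09 and 7.94 FPKM in FT cells and 17.6, 19.0 and 17.8 in WT cells. MIS12 had 5.23, 4.51 and 4.27 FPKM in FT cells and 7.04, 7.81 and 8.04 in WT cells. Neither gene's groups overlapped, and in MIS12 FT_1 was the highest FT library rather than the lowest. DSN1 fell by 1.12 (SE 0.12, adjusted p = 0.00179) and MIS12 by 0.55 (SE 0.13, adjusted p = 0.0176) on the log2 scale. PMF1 had 9.24, 7.44 and 6.23 FPKM in FT cells against 13.3–16.7 FPKM in WT cells, and fell by 0.82. MIS12 lost its call without FT_2, FT_3, WT_2 or WT_3, and PMF1 without WT_2 or WT_3.

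The SKA complex, the outermost kinetochore proteins and the motors and regulators gave 9 members, of which 7 fell and 0 rose in edgeR at the adjusted threshold (0 rose at an unadjusted p under 0.05, in DESeq2 or in limma). The median log2 fold change of the 9 was -1.15, and without FT_1 it was -0.95, with 8 lower. SKA1, SKA2 and SKA3 make up the complex that helps the kinetochore follow a shrinking microtubule. SKA1 had 1.15, 1.47 and 1.71 FPKM in FT cells against 4.02, 4.71 and 3.36 in WT cells, and SKA3 had 3.39, 5.62 and 6.47 FPKM in FT cells and 14.7, 17.6 and 13.9 in WT cells. SKA2 was more abundant, with 21.8, 32.8 and 29.2 FPKM in FT cells and 52.3, 56.5 and 51.2 in WT cells. The groups did not overlap in any of the 3 genes. On the log2 scale SKA3 fell by 1.41 (adjusted p = 0.00875), SKA1 by 1.31 (adjusted p = 0.00572) and SKA2 by 0.77 (adjusted p = 0.0145). SKA2 lost its call without WT_1 or WT_2.

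CENPF and CENPE are large proteins of the fibrous outer face of the kinetochore, and CENPE is a motor that carries chromosomes towards the middle of the spindle. CENPF had 3.5, 5.1 and 4.39 FPKM in FT cells and 15.3, 18.4 and 14.3 in WT cells, for a log2 fold change of -1.72 (SE 0.18, adjusted p = 0.00153). CENPE had 1.3, 1.84 and 2.23 FPKM in FT cells and 4.10, 5.37 and 3.83 in WT cells, for a log2 fold change of -1.15 (SE 0.24, adjusted p = 0.0135). In both genes the WT values were above all FT values, WT_2 was the highest library and FT_1 was the lowest. CENPE lost its call without WT_2. KNSTRN, a spindle and kinetochore protein, had 12.5, 10.5 and 11.6 FPKM in FT cells against 27.1, 34.0 and 26.6 in WT cells, and it fell by 1.18 (SE 0.13, adjusted p = 0.00168). RCC1, the exchange factor of the RAN GTPase on chromatin, had 4.12–5.30 FPKM in FT cells against 6.49–7.21 in WT cells and fell by 0.44 (adjusted p = 0.0352). RCC1 lost its call when any library but FT_1 was left out.

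NDE1 and NDEL1, related regulators of the motor dynein, did not pass the test. NDE1 had 9.65, 14.5 and 15.1 FPKM in FT cells and 19.2–20.3 in WT cells, at a log2 fold change of -0.44 (adjusted p = 0.111) with FT_1 and -0.25 (adjusted p = 0.00756) without it. NDE1 also passed with library totals alone and with limma on the FPKM values, but not with DESeq2. NDEL1 had 17.02, 19.3 and 14.9 FPKM in FT cells and 12.9, 16.8 and 16.5 in WT cells, so its groups overlapped, and its log2 fold change was 0.31 (adjusted p = 0.141).

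**Figure D2:**
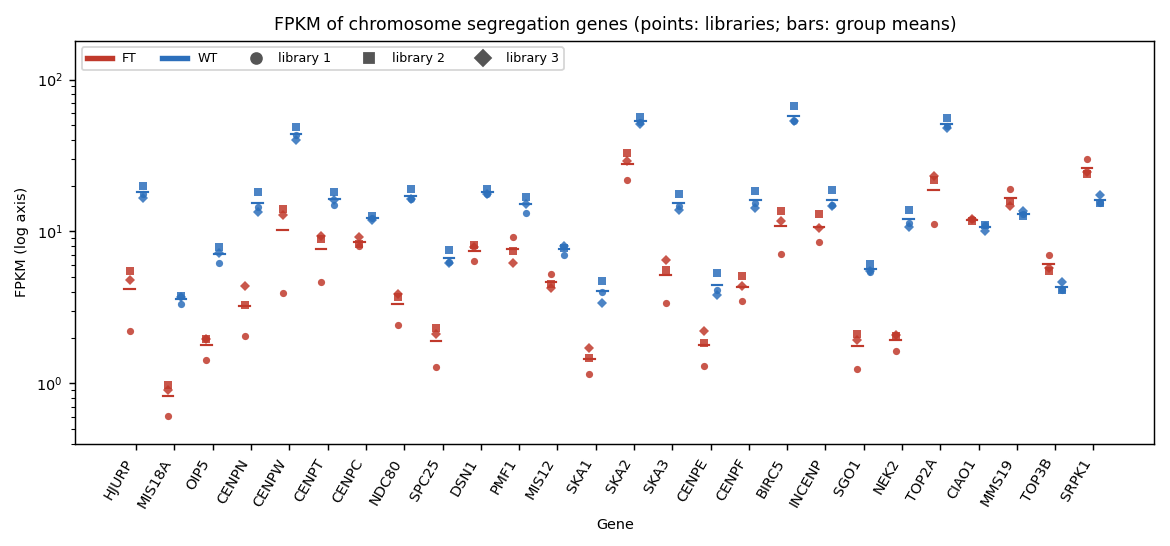
FPKM (log axis) of 26 segregation genes in the 6 libraries, with FT in red and WT in blue, a point for each library (circle, square and diamond for libraries 1, 2 and 3) and a bar at each group mean. The FT points lie below the WT points in the kinetochore genes, by more than 4-fold in NDC80 and NEK2 and by far less in CENPC, and above them in the last 4 genes.

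The chromosomal passenger complex and the mitotic kinases gave 7 members, of which 3 fell, 1 rose and 3 did not pass the test (4 lower and 1 higher without FT_1). BIRC5 and INCENP are both subunits of the passenger complex, which brings the kinase AURKB to the centromere. BIRC5 had 7.14, 13.6 and 11.8 FPKM in FT cells and 53.0, 67.3 and 53.3 in WT cells, while INCENP had 8.56, 13 and 10.6 FPKM in FT cells and 15.0, 18.7 and 14.7 in WT cells. In both genes every FT value was below every WT value, by a wide gap in BIRC5 and a narrow one in INCENP. The log2 fold change of BIRC5 was -2.25 (SE 0.27, adjusted p = 0.00218), and without FT_1 it was -2.02 (adjusted p = 7.42e-07). The log2 fold change of INCENP was -0.43 (SE 0.19) and did not pass edgeR's test (adjusted p = 0.119). INCENP passed with library totals alone and with limma on log2(FPKM + 1) or log2(FPKM + 0.1). It did not pass with limma on log2(FPKM + 1) without a filter (adjusted p = 0.0558).

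NEK2, a kinase of the centrosome and kinetochore, had the largest fall of the 49 tested members. It had 1.63, 2.04 and 2.08 FPKM in FT cells against 11.5, 13.9 and 10.7 in WT cells, and the FT libraries were close to each other. Its log2 fold change was -2.48 (SE 0.17, adjusted p = 0.000687) and -2.37 without FT_1. SGO1, the protector of cohesion at the centromere, had 1.24, 2.11 and 1.94 FPKM in FT cells and 5.40, 6.07 and 5.50 in WT cells, with no overlap. SGO1 fell by 1.51 on the log2 scale (SE 0.23, adjusted p = 0.00446).

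SRPK1, a kinase of splicing factors, went the other way. It had 30.0, 24.0 and 24.6 FPKM in FT cells and 15.3, 15.4 and 17.4 in WT cells, so that every FT library was above every WT library. SRPK1 rose by 0.86 on the log2 scale (SE 0.11, adjusted p = 0.00259), the largest rise among the tested members. NEK6, another mitotic kinase, had 35.2 FPKM in FT_1, 18.03 and 18.9 in the other FT libraries, and 34.0, 34.0 and 31.1 in WT cells. FT_1 lay above the WT libraries and the other FT libraries lay below them. Its log2 fold change was -0.30 (adjusted p = 0.389) with FT_1 and -0.67 (adjusted p = 3.15e-05) without it. TLK2, a kinase that acts on histone chaperones, had 8.43–9.25 FPKM in FT cells and 9.66–10.1 in WT cells, for a log2 fold change of 0.01 (adjusted p = 0.939).

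ESCO2, which acetylates cohesin to hold sister chromatids together, was the only member from the list of cohesin and condensin genes. It had 1.24, 2.39 and 2.17 FPKM in FT cells and 6.0, 7.74 and 4.98 in WT cells, with no overlap. ESCO2 fell by 1.52 on the log2 scale (SE 0.31, adjusted p = 0.0113).

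The topoisomerases and DNA repair proteins gave 4 members, of which TOP2A and BRCA1 fell, TOP3B rose and TOP1 did not pass the test. TOP2A, which untangles sister chromatids before they part, had 11.3, 21.7 and 23.3 FPKM in FT cells and 49.6, 56.2 and 47.9 in WT cells. BRCA1, a protein of recombination repair, had 1.61, 3.35 and 3.36 FPKM in FT cells and 6.29, 7.49 and 6.58 in WT cells. FT_1 had about 0.5 times the level of the other FT libraries in both genes, and no FT value reached the WT values. TOP2A fell by 1.28 (SE 0.29, adjusted p = 0.0163) and BRCA1 by 1.13 (SE 0.30, adjusted p = 0.0293) on the log2 scale, and both lost their call when any WT library was left out.

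TOP3B, a topoisomerase that also acts on RNA, had 7.01, 5.49 and 5.74 FPKM in FT cells and 4.14, 4.09 and 4.64 in WT cells. All FT values were higher, and TOP3B rose by 0.66 on the log2 scale (SE 0.12, adjusted p = 0.00788). TOP3B lost its call with limma on log2(FPKM + 1) without a filter. TOP1, which relaxes DNA ahead of polymerases, had 31.4–32.2 FPKM in FT cells and 35.1–36.5 in WT cells, yet its log2 fold change was -0.01 (adjusted p = 0.924) after the scaling of the counts.

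CIAO1, MMS19 and ERCC2 have been described together in a complex of the spindle, and CIAO1 and MMS19 otherwise deliver iron-sulfur clusters to enzymes such as the helicase ERCC2. Of these 3 members 2 rose and 0 fell in edgeR (0 at an unadjusted p under 0.05, in DESeq2 or in limma). CIAO1 had 12.1, 11.7 and 12.03 FPKM in FT cells and 11.0, 11.0 and 10.0 in WT cells. MMS19 had 18.9, 15.8 and 14.8 FPKM in FT cells and 12.98, 12.7 and 13.6 in WT cells. The FT values were all higher than the WT values in both genes, by small margins. CIAO1 rose by 0.32 (SE 0.07, adjusted p = 0.0188) and MMS19 by 0.49 (SE 0.10, adjusted p = 0.0129) on the log2 scale. Neither rise was called with library totals alone (adjusted p = 0.124 for CIAO1 and 0.053 for MMS19) or with limma on the FPKM values. CIAO1 was called in none of the fits that left out a library other than FT_1, and MMS19 lost its call without WT_1 or WT_2. ERCC2 had 8.42, 6.0 and 5.76 FPKM in FT cells against 5.33, 6.48 and 5.43 in WT cells, so the groups overlapped, and its log2 fold change was 0.38 (adjusted p = 0.118).

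The other 15 members had no place in these role lists, and 4 of the 13 tested among them fell and 0 rose in edgeR (2 at an unadjusted p under 0.05, 1 in DESeq2 and 0 in limma). Without FT_1 the counts were 7 and 2. NTMT1, a methyltransferase of protein ends, fell by 0.83, with 6.80–7.31 FPKM in FT cells and 12.9–15.3 in WT cells. PPP1R7, a regulatory subunit of protein phosphatase 1, fell by 0.63, with 30.4–39.4 FPKM in FT cells against 52.9–65.7 in WT cells, and lost its call without FT_3, WT_1 or WT_2. Groups did not overlap in either of these genes.

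A fallen member without a symbol was ENSBTAG00000027715 (chromosome 26, 21188743 to 21189762 in the authors' table). It had 1.54, 2.95 and 2.45 FPKM in FT cells and 7.93, 9.39 and 7.91 in WT cells, for a log2 fold change of -1.70 (SE 0.28, adjusted p = 0.00602). The other member without a symbol, ENSBTAG00000033740 (chromosome 1, 115264273 to 115264638), had 3.18, 2.14 and 0.24 FPKM in FT cells and 5.41, 4.95 and 7.57 in WT cells. FT_3 was far below the rest, with 5 counts, and the log2 fold change of -1.54 did not pass the test (adjusted p = 0.178). These gene models span only 1020 and 366 bases, and how reads shared with related genes were counted is not given in the sources used here, so their values are uncertain.

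CDT1, SEH1L, UVRAG, PHF13, CDK5RAP2, ABRAXAS2, SETDB2 and NAA60 did not pass the test. CDT1, a factor that licenses replication origins, had 1.91, 2.04 and 2.39 FPKM in FT cells and 3.38, 3.74 and 2.99 in WT cells, at a log2 fold change of -0.51 (adjusted p = 0.0657). CDT1 did pass with DESeq2, with library totals alone and with limma on the FPKM values. Among the fits that left out a library, it passed only without FT_1. SEH1L, a nuclear pore protein, had 19.0, 12.1 and 11.4 FPKM in FT cells and 16.9–21.6 in WT cells. FT_1 lay among the WT values and the other FT libraries below them. The last 6 of these genes had log2 fold changes between -0.20 (UVRAG) and 0.39 (NAA60). RGS14 and USP44 had too few counts to be tested. RGS14 had 0, 4 and 0 counts in FT cells against 23, 4 and 12 in WT cells, and USP44 had 8 counts in FT_1 and 0 in the other 5 libraries.

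**Figure D3:**
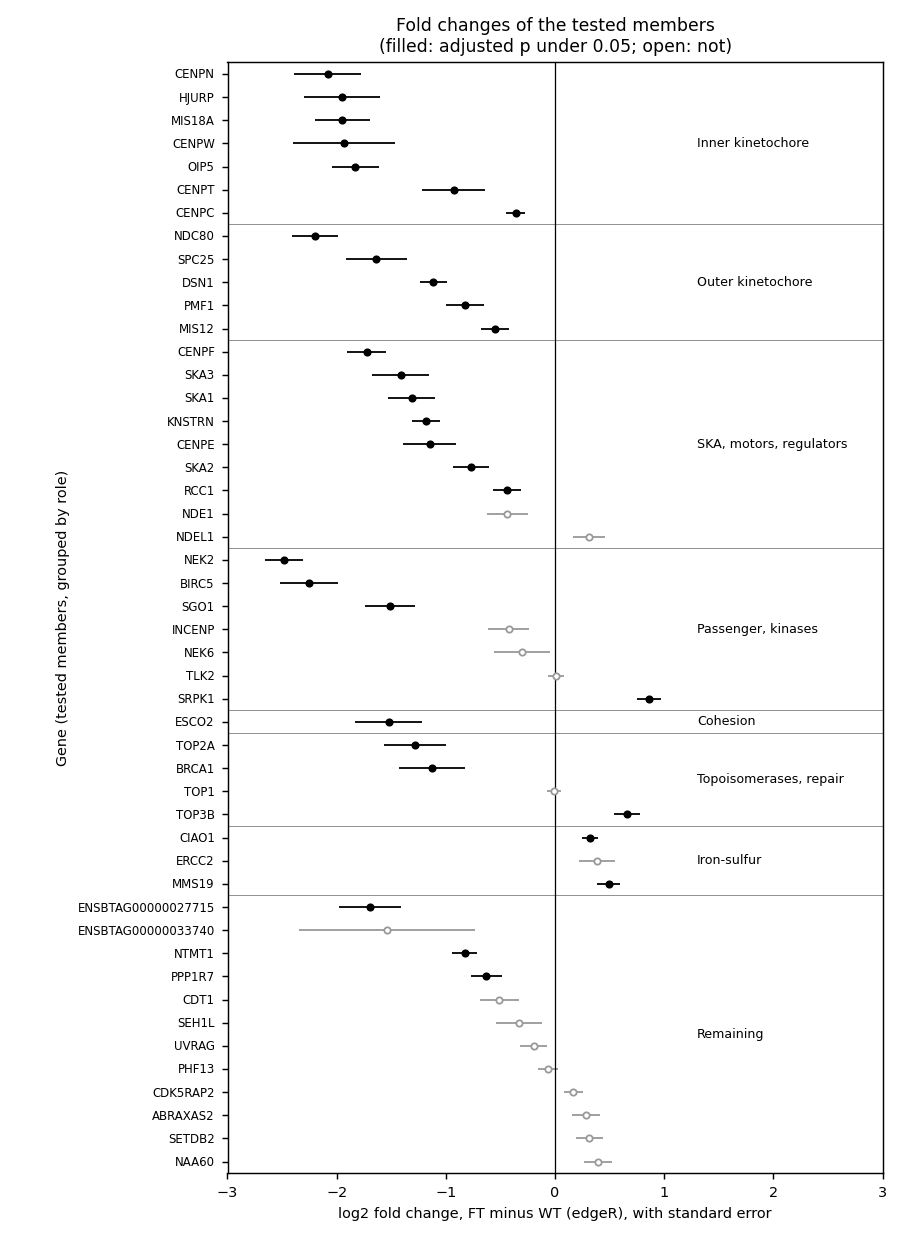
Log2 fold change (FT minus WT, from edgeR) of all but 1 of the 49 tested segregation genes with its standard error, grouped by role, with filled points for an adjusted p under 0.05. All inner and outer kinetochore genes lie left of 0, NEK2 lies farthest left at -2.48, and the rises end at 0.86 in SRPK1.

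The members were also divided by their other annotation. Of the 51 genes, 27 also carried a GO term for cell division, kinetochore or centromere, and 26 of these were tested. In this group 20 fell and 0 rose in edgeR (0 at an unadjusted p under 0.05, in DESeq2 or in limma), and the median log2 fold change was -1.25. Of the 23 tested genes without such a term, 9 (39.1%) fell and 4 (17.4%) rose, with a median of -0.06. By comparison, 18.9% of all genes tested fell and 20.1% rose. The difference between these groups was not tested. Without FT_1 the counts were 24 lower and 0 higher with the term, and 10 lower and 6 higher without it. In that fit 31.5% of all genes tested were lower and 30.6% were higher.

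Seen library by library, the scaled log2 counts of the 26 genes with the term had medians of -1.64, -1.25 and -1.07 in FT_1 to FT_3 relative to the WT mean. The 23 genes without the term had medians of -0.02, -0.06 and -0.05. The medians of the former genes were low in all FT libraries, lowest in FT_1. Those of the latter lay near 0 over genes that went both ways, from falls such as CENPN to rises such as SRPK1. Among the 49 tested members, FT_1 was the lowest FT library in 30 (61.2%), against 44.3% of all genes tested. WT_2 was the highest WT library in 34 (69.4%), against 36.6% of all genes tested. Among the 29 fallen members these counts were 24 and 26. Those 29 were called for low FT values relative to WT values, so all genes are not a like baseline for them. PMF1, MIS12, KNSTRN and RCC1 were among the exceptions, with FT_1 above the other FT libraries.

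The members differed widely in level. On the FPKM scale, which takes gene length into account, the WT means of the 49 tested genes ran from 2.15 for SETDB2 to 58.3 for PPP1R7, with a median of 12.8. The fallen genes covered nearly the same range, from 3.58 for MIS18A to 58.3 for PPP1R7. The members lay on 23 of the 29 chromosomes in the table. Chromosome 19 held 7 of them, BIRC5, BRCA1, MIS12, NDEL1, SKA2, TLK2 and TOP2A, of which 5 fell.

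Further genes with the same roles were outside the rule, among them genes that KEGG places in the cell cycle pathway. Of 93 such genes tested, 55 fell and 6 rose, against 18.9% and 20.1% of all genes tested. Without FT_1 the counts were 59 and 11, against 31.5% and 30.6% of all genes. The genes named from these role lists were chosen after their values were seen. CENPA, the centromeric histone itself, had 2.21, 3.93 and 3.98 FPKM in FT cells against 29.3, 36.6 and 27.9 in WT cells. CENPA fell further than any member, at a log2 fold change of -3.05 (SE 0.28, adjusted p = 0.00114). SPC24 and NUF2, the partners of SPC25 and NDC80, fell by 2.81 (adjusted p = 0.000523) and 2.21 (adjusted p = 0.00192), and KNL1, the scaffold of the outer kinetochore, fell by 1.63 (adjusted p = 0.00794). All 4 subunits of the NDC80 complex were therefore lower in FT cells. AURKB, the kinase of the passenger complex, had 4.95, 5.85 and 6.38 FPKM in FT cells against 15.6, 17.3 and 15.0 in WT cells and fell by 1.32 (adjusted p = 0.00146).

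By role, 11 of 14 further inner kinetochore genes and 4 of 5 further outer kinetochore genes fell. So did 16 of 26 motors and regulators, 9 of 14 passenger and kinase genes and 6 of 12 topoisomerase and repair genes. Of the last 12 genes, 2 others (16.7%), TOP3A (log2 fold change 0.45) and FANCM (0.60), rose. Over all genes tested, 18.9% fell and 20.1% rose. Among 21 cohesin and condensin genes, 9 (42.9%) fell and 4 (19.05%) rose, a share of rises near that of all genes. The fallen ones included the condensin gene NCAPG, with 4.44, 6.61 and 6.02 FPKM in FT cells against 23.6, 28.6 and 20.7 in WT cells and a log2 fold change of -1.93 (adjusted p = 0.00153). The risen ones included MAU2, a cohesin loader, with a log2 fold change of 1.01 (adjusted p = 0.00908). CIAO2B, the partner of CIAO1 and MMS19, had a log2 fold change of 0.08 (adjusted p = 0.594), and its paralogue CIAO2A fell, with 38.0, 43.2 and 38.7 FPKM in FT cells and 88.8, 94.5 and 74.5 in WT cells.

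The steps that control segregation were taken from lists of pathway genes. Of 26 genes of the spindle checkpoint and of anaphase, 14 fell and 0 rose in edgeR (1 at an unadjusted p under 0.05, 0 in DESeq2 and in limma), against 16 and 1 without FT_1. CDK1, the kinase that drives mitosis, had 4.02, 4.14 and 3.57 FPKM in FT cells against 13.4, 14.9 and 12.2 in WT cells and fell by 1.63 (SE 0.11, adjusted p = 0.000687). CDC23, a subunit of the anaphase-promoting complex, had 4.38, 4.54 and 4.35 FPKM in FT cells against 9.26, 8.94 and 9.41 in WT cells and fell by 0.90 (SE 0.08, adjusted p = 0.000974). In both genes the FT libraries, FT_1 included, were close together and far from the WT libraries. Of 21 genes of mitotic entry and the spindle, 20 fell with or without FT_1, and the exception was FOXM1 (adjusted p = 0.289). RACGAP1, a protein of cytokinesis, fell by 1.40 (SE 0.08) and HMMR, a spindle protein, by 1.97 (SE 0.12), each with an adjusted p of 0.000523.

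The KEGG pathways that the rule left out were set beside the members. Of 116 tested genes of the KEGG cell cycle pathway 47 fell and 13 rose, with a median log2 fold change of -0.33. Of 34 tested genes of the KEGG DNA replication pathway 22 fell and 1 rose, with a median of -0.78. Without FT_1 the counts were 66 and 21 in the former pathway and 25 and 3 in the latter. The shares of all genes tested were 18.9% lower and 20.1% higher, or 31.5% and 30.6% without FT_1. The median of the members was -0.82 and that of the 26 members with a cell division, kinetochore or centromere term was -1.25. These medians are descriptions, and no difference between the lists was tested.

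The comparison rests on 3 fetuses per genotype, and FT and WT fetuses could differ in more than the transgene, such as breed, sex or the state of the cultures. RNA was measured, and protein levels, mitoses and cell numbers were not analysed here. A p that misses the threshold does not show that the values did not differ. Calls with an adjusted p close to 0.05, such as those of CENPT, RCC1 and BRCA1, depended on which libraries were included. So did calls farther from 0.05, such as those of CENPE, PMF1 and TOP2A.

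**Figure D4:**
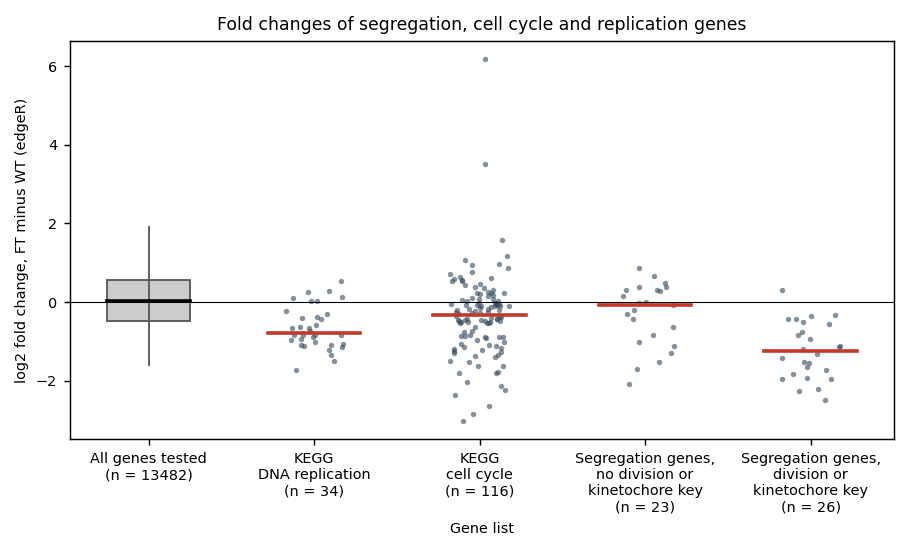
Log2 fold changes (FT minus WT, from edgeR) of all genes tested (box for the middle 50% of genes, line in the box for the median, whiskers from the 5th to the 95th percentile) and of 4 gene lists, with a point for each gene and a red line at each median. The segregation genes with a cell division, kinetochore or centromere term have their median at -1.25, below those of the other lists.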

How the data were processed

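RNA-seq of bovine fetal fibroblasts with the fat-1 transgene (FT) and without it (WT) was taken from the table the authors deposited. For read mapping the authors used HISAT, and for transcript merging and expression levels Perl scripts, StringTie and edgeR. The submitters' processing notes name HISAT2 2.0, StringTie 1.3.0 and Bowtie 0.12.2, and as build mm8, a mouse build that does not match the bovine gene identifiers. The sample records give fetal fibroblasts as the source, but their extraction text speaks of RNA of an adipose type, and they name a different sequencer from the one in the study's methods. The deposited FPKM values are scaled by gene length and library total, and the deposited counts are raw, with 1 column of each per library. FPKM served as levels. The counts were tested with edgeR 4.0.16 in R 4.3.3 (TMM scaling, filterByExpr, quasi-likelihood test, group as the only term), with Benjamini-Hochberg adjustment over all 13482 genes tested. The standard error is the log2 fold change divided by the square root of F. The pipeline was tested on simulated data of the FT against WT comparison, where edgeR called 20 of 100 genes changed 2-fold and 74 of 99 changed 4-fold among 13617 tested, so that many real changes of 2-fold or less could miss the threshold. Members, role lists and marker lists were chosen with earlier results of these data known, so no set was tested.

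Named genes were, in each role or pathway list, the 2 with the smallest p; the 8 largest falls and the rises among called members without overlap; and fixed kinetochore genes among the members. Others were named to account for every member or, outside the members, after their values were seen. Markers TIE1, PTPRC, MYOD1, MYOG, PAX7, SOX10 and ITLN1 were not analysed here. Alternatives were no filter, median-ratio factors, library totals, DESeq2 1.42.0, limma 3.58.1 on log2(FPKM + 1) or log2(FPKM + 0.1) for a mean FPKM of at least 0.5 or without that filter, a replicate block, a length trend removed and each library left out.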

Additional observations from a re-analysis of the deposited data

How the results depend on the processing

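None of the 33 called members changed direction under the 14 other settings, and 19 kept their call in all of them. The count of lower members was 28–33 with another filter, scaling or test and 18–34 with a library left out, with 18 without WT_2. The count of higher members, 4, was 2 with library totals alone, 2 with limma on log2(FPKM + 1), 2 on log2(FPKM + 0.1), 1 with limma without a filter and 2–6 with a library left out. The members' median of -0.82 was -0.97 with library totals, -0.91, -0.98 and -0.90 in those limma fits, -0.71 with a length trend removed and -0.90 to -0.75 with a library left out (-0.75 without FT_1, where RGS14 also passed the filter). The median of all genes was -0.12 with library totals and -0.12 and -0.15 in the limma fits with a filter, against 0.03 with TMM and also with median-ratio factors. Over all genes, 2547 were lower and 2714 higher, against 3394 and 2049 with library totals. The counts were 4335 and 4215 without FT_1, 1531 and 1516 without WT_1, 1570 and 1613 without WT_2, and 1741 and 1796 without WT_3. TLK2, not called in any fit, turned from 0.01 to -0.14 with library totals, -0.14, -0.15 and -0.14 in the limma fits, and ranged from -0.012 to 0.039 with a library left out. The replicate numbers did not pair the libraries, since deviations correlated at -0.001, -0.02 and 0.018. A replicate block gave 25 lower and 3 higher members and 1741 lower and 1838 higher genes overall. Low counts kept RGS14 and USP44 out of the main test. The cause of these differences was not tested.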

Other observations

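Genes that copy DNA and genes that hold the cell cycle back were also measured. Of 18 genes of replication licensing and S phase, CDT1 among them, 12 fell and 0 rose in edgeR (0 at an unadjusted p under 0.05, in DESeq2 or in limma), with a median log2 fold change of -1.07. Without FT_1, 15 were lower. PCNA, the sliding clamp of DNA polymerases, had 17.1, 21.1 and 20.1 FPKM in FT cells against 57.5, 74.0 and 52.9 in WT cells and fell by 1.501 (adjusted p = 0.00163 from edgeR). TYMS, which makes thymidylate, had 19.8, 23.7 and 22.8 FPKM in FT cells against 63.2, 76.7 and 64.1 in WT cells and fell by 1.46 (adjusted p = 0.000949). No values overlapped between groups in either gene.

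Of 10 cell cycle inhibitor genes tested, 3 fell and 3 rose, against 18.9% and 20.1% of all genes tested. Without FT_1 the counts were 5 and 5, against 31.5% and 30.6% of all genes. RBL2, a relative of the retinoblastoma protein found in resting cells, had 15.9, 16.5 and 16.5 FPKM in FT cells against 13.01, 11.2 and 12.3 in WT cells and rose by 0.58 (adjusted p = 0.00382). RBL1, its relative of dividing cells, had 3.89, 4.43 and 4.51 FPKM in FT cells against 6.84, 6.99 and 6.77 in WT cells and fell by 0.52 (adjusted p = 0.00936). The other inhibitors given here were named after their values were seen. CDKN1C set FT_1 apart, with 38.1 FPKM against 2.37 and 1.53 in the other FT libraries and 1.11–1.52 in WT cells. CDKN1A, an inhibitor of cyclin-dependent kinases, had 118, 66.8 and 75.7 FPKM in FT cells and 91.4–97.1 in WT cells, so its groups overlapped.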
